A study of Mus musculus with 89 samples.

Results

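Goblet cells fill the jejunal surface with mucus, and 10 genes known for their expression in these cells (Muc2, Fcgbp, Zg16, Clca1, Tff3, Spink4, Agr2, 9530053A07Rik, Fer1l6 and Ccl6) are described here in clumps and single cells of the mouse jejunal epithelium. The members were given as a list of symbols, and all 10 members were found among the 27538 genes of the clump table and among the 23379 genes of the cell table. All samples came from male C57BL/6 mice fed regular chow, with no treatment or transgene named, at 3 months of age except for 3 plates of single cells of mouse 2 labelled 4 months. Clumps were obtained by a mild dissociation with EDTA, stained for DNA and sorted as pairs (4n DNA content, mice 1 to 5, 27 plates) or as larger clumps (above 4n, mice 1, 4 and 5, 14 plates), and mouse 6 gave 4 more plates, of clumps above 2n, which entered no main comparison. Single cells came from mice 1 to 4 on 44 plates, sorted through different antibody gates, and these mice are numbered apart from those of the clumps. Each well was sequenced by MARS-seq, in which every captured mRNA molecule carries a unique molecular identifier (UMI) next to its 3′ end, so that counts do not scale with transcript length. Levels are given as UMIs of a gene scaled to the total UMIs of a sum (counts per 1e6, CPM), with the mouse as the replicate.

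Goblet cells arise in the crypt, move up the villus with the neighboring enterocytes and are shed at the tip. They pack gel-forming mucin into large granules and release it, together with proteins that link, cut or guard the gel. Muc2 is the gel-forming mucin itself, Fcgbp is a large protein bound to the Muc2 network, and 9530053A07Rik lies next to Fcgbp and has no common name. Clca1 is a protease of the mucus, Zg16 a lectin that binds Gram-positive bacteria, Tff3 a trefoil peptide of mucosal repair and Spink4 a member of the Kazal family of protease inhibitors. Agr2 is a disulfide isomerase of the endoplasmic reticulum needed to make Muc2, Ccl6 is a chemokine and Fer1l6 belongs to the ferlin family of membrane proteins.

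The genes are spread over 7 chromosomes of GRCm38, the build of the files. Muc2 (chr7:141690340-141754693), Fcgbp (chr7:28071236-28120862), 9530053A07Rik (chr7:28129466-28164811) and Zg16 (chr7:127050156-127087328) lie on chromosome 7. Clca1 lies at chr3:145003817-145032776, Tff3 at chr17:31125306-31129646, Spink4 at chr4:40920052-40931395, Agr2 at chr12:35992907-36004087, Fer1l6 at chr15:58510048-58665092 and Ccl6 at chr11:83587882-83593087. Zg16, Clca1, Tff3 and Ccl6 are on the minus strand and the others on the plus strand, and all are annotated as protein coding. Fcgbp and 9530053A07Rik follow each other on the same strand with 8603 bases between them. In the last 1000 bases of their transcripts, where the UMIs are read, they share 17.8% of stretches of 50 bases (169 of 951), so part of their reads could be split between them and each of their levels is uncertain to that extent. No other 2 members share such a stretch.

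RefSeq promoters (GRCm38.p6, 250 bases before to 50 after the start) were at hand for 5 members. Those of Fcgbp and 9530053A07Rik are shown because these neighbors had similar patterns below, and those of Muc2 and Agr2 because the mean levels of these genes went opposite ways from crypt to tip. Capitals mark a TATA box (TATAAA or TATATA), an E box of the Atoh1 type (CAGCTG) or a CACCC box of the Klf4 type (GGGTGTG, or CACACCC on the other strand), searched on both strands.
Fcgbp, chr7:28070986-28071285, plus strand: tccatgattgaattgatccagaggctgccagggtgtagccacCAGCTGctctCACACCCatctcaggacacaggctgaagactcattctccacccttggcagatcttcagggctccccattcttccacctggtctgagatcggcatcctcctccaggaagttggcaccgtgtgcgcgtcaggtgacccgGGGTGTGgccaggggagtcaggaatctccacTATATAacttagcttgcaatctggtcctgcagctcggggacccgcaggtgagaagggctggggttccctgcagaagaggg
9530053A07Rik, chr7:28129216-28129515, plus strand: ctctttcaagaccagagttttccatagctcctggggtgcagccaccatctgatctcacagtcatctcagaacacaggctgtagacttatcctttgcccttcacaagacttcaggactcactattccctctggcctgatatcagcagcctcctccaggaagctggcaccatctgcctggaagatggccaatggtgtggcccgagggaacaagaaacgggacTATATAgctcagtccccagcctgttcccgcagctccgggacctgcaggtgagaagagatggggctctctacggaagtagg
Muc2, chr7:141690090-141690389, plus strand: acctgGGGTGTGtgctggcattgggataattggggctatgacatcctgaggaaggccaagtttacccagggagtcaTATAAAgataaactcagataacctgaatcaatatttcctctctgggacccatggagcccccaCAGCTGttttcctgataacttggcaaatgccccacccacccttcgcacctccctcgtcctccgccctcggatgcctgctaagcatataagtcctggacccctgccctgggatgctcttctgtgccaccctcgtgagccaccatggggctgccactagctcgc
Agr2, chr12:35992675-35992974, plus strand: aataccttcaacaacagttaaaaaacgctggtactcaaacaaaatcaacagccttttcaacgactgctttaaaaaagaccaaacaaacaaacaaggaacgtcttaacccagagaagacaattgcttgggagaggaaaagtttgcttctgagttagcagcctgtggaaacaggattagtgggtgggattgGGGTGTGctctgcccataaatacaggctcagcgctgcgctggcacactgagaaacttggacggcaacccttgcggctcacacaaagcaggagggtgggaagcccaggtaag
The Fcgbp and 9530053A07Rik promoters were identical at 215 of 296 aligned bases (72.6%), against 48.9 to 57.7% for the other pairs of members, and both held a TATA box beginning 30 bases before the start. The letters of the TATA box were found in 3 of the 5 promoters and in 17.1% of 32851 RefSeq promoters of this length. In Muc2 they began 174 bases before the start, far from the place of the other 2. The E box stood in 2 of the 5 (Fcgbp and Muc2), against 16.3% of all, and the CACCC box in 3 (Fcgbp, Muc2 and Agr2), against 7.95%. The Ccl6 promoter held none of these motifs, and a forkhead motif (TGTTTAC or TGTTTGC, 8.48% of all) and the letters GACGTG (6.38% of all) were in none of the 5.

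Of 6004 clumps that passed the filters, 5883 were placed in a zone by enterocyte landmark genes, as 3251 crypt, 1821 mid-villus and 811 villus tip clumps. The sums per mouse held 346613 to 18868631 UMIs for the crypt, 197189 to 2764557 for the mid-villus and 76801 to 757892 for the tip. Clumps called goblet-bearing held at least 2 UMIs, and a level of at least 1000 CPM, of 33 goblet markers of the study that include none of the 10 members, so the members did not choose them. Goblet-bearing were 271 crypt, 76 mid-villus and 39 tip clumps. Per mouse these made up 4.59 to 10.2% of crypt, 0.758 to 7.22% of mid-villus and 3.09 to 10.5% of tip clumps. The rule can miss goblet cells, so clumps below it are not known to be free of them. Among single cells, 5199 passed the filters, and clusters made without the members held 202 goblet-like, 2550 enterocyte-like, 1618 lymphocyte-like, 251 enteroendocrine-like and 184 tuft-like cells, with 394 cells unnamed. In every mouse each of the 10 members had its highest level in the goblet-like cluster.

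Over all clumps, 6 of the 10 mucus genes rose from the crypt to the villus tip. The lectin Zg16 rose most, from 968 ± 371 CPM (SD, n = 5 mice) to 9233 ± 5342, and the gel-forming mucin Muc2 rose from 147 ± 64.4 to 951 ± 728. The folding enzyme Agr2 and the protease inhibitor Spink4 did not pass the test, and their mean levels were lower at the tip. The summed level of the 10 members was 4081 ± 1287 CPM for crypt, 7133 ± 5604 for mid-villus and 20289 ± 12687 for tip clumps.

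In crypt clumps of mice 1 to 5, Zg16 stood at 896, 999, 1578, 767 and 603 CPM, and at the tip at 16577, 4869, 12093, 9136 and 3490. Muc2 stood at 101, 71.8, 237, 173 and 150 CPM in the crypt and at 1649, 274, 1814, 654 and 365 at the tip. For both genes, every tip value lay above every crypt value, with mice 1 and 3 highest at the tip. The levels of Clca1 (80.8 to 207 CPM in crypt and 218 to 1364 in tip clumps) and of Tff3 (837 to 1848 and 2240 to 11019) were likewise apart. Fcgbp (153 to 592 and 291 to 3586) and 9530053A07Rik (109 to 327 and 181 to 2544) were higher at the tip in 5 of 5 mice, but their ranges overlapped, with the lowest tip value in mouse 2 for each. Agr2 stood at 269, 199, 507, 606 and 560 CPM in the crypt and at 381, 66.1, 230, 275 and 78.1 at the tip. Its tip level was the lower one in 4 of 5 mice, as was that of Spink4 (343 to 861 and 118 to 1006), mouse 1 being the exception for both.

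By edgeR's quasi-likelihood test on UMIs summed per mouse, calling genes with a Benjamini-Hochberg adjusted p under 0.05, 6 of 9 members tested were higher at the tip and none lower. Of the 6984 genes tested, 54.3% were called, 24.5% higher and 29.8% lower. The log2 fold change was 3.59 ± 0.50 (SE) for Zg16 (adjusted p = 7.23e-06), 3.02 ± 0.56 for Clca1 (adjusted p = 0.000147), 3.00 ± 0.58 for Muc2 (adjusted p = 0.000222) and 2.59 ± 0.44 for Tff3 (adjusted p = 6.88e-05). It was 2.96 ± 0.66 for 9530053A07Rik (adjusted p = 0.000926) and 2.70 ± 0.61 for Fcgbp (adjusted p = 0.000913). Agr2 (−0.80 ± 0.50, adjusted p = 0.179), Spink4 (−0.14 ± 0.46, adjusted p = 0.827) and Ccl6 (0.20 ± 0.54, adjusted p = 0.782) did not pass. The median over all genes tested was −0.07, and 1709 genes were called higher and 2083 lower. When DESeq2's size factors replaced TMM, the median was −0.40 and the split 1290 and 2564. Fer1l6, at 0 to 5.17 CPM in crypt and 0 to 32.2 in tip clumps, was too low to be tested. With no filter on low counts it was called higher at the tip (2.33 ± 0.70, adjusted p = 0.016), as were 1871 of 24570 genes. A sum over clumps cannot tell more goblet cells from more RNA per goblet cell.

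Goblet-bearing clumps carried most of the member UMIs of the villus. Pooled over mice, they held 9.0% of all UMIs in the crypt and 45.8% of the UMIs of the 10 members, 6.5% and 75.1% in the mid-villus, and 9.7% and 92.8% at the tip. Per mouse, their share of the member UMIs was 33.2 to 69.4% (median 51.0%), 0 to 81.3% (median 60.1%) and 55.4 to 98.2% (median 93.3%) in these zones, and without mouse 3 the pooled mid-villus share was 52.9%. Within the crypt, the median share over mice was lowest for Spink4 (32.2%) and highest for Tff3 (54.3%), with single mice between 28.3 and 71.0% for Tff3. In clumps that were not goblet-bearing, a setting chosen after seeing the data, the 6 genes above were not called (log2 fold changes of 0.36 to 1.24, adjusted p of 0.149 to 0.661), while Agr2 (−2.11, adjusted p = 0.0327), Spink4 (−1.75, adjusted p = 0.0401) and Ccl6 (−1.92, adjusted p = 0.0146) fell from the crypt to the tip. In that fit 2277 of 6604 genes were called lower, and 3 of 9 members is near that share.

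From the crypt to the mid-villus, Clca1 (1.68 ± 0.53, adjusted p = 0.0149) and Zg16 (1.59 ± 0.46, adjusted p = 0.00899) rose, against 20.1% of genes called higher, and Agr2 fell (−1.24 ± 0.49, adjusted p = 0.047), against 22.3% called lower and 42.4% either way. Zg16 stood at 1335, 1312, 6264, 1660 and 2155 CPM in the mid-villus of mice 1 to 5, 3 of these values being above the highest crypt value. Agr2 stood at 83.6, 64.2, 344, 147 and 193 CPM there. Over all genes 1404 were called higher and 1557 lower (874 and 2090 with DESeq2's size factors). Mouse 3 was the highest mouse of the mid-villus for each of the 10 members and for their sum (16953 CPM, against 3564 to 6324 in the others), and it also had the highest share of goblet-bearing clumps there (7.22%). Whether that share accounts for the level was not tested. The other members tested, among them Muc2 (1.33, adjusted p = 0.0559) and Tff3 (1.05, adjusted p = 0.0513), did not pass. With the mouse as a block, where 4049 of 6984 genes were called (2089 higher and 1960 lower), 8 of 9 members passed: Muc2 (1.16, adjusted p = 0.00131), Fcgbp (1.20, adjusted p = 0.00379), 9530053A07Rik (1.20, adjusted p = 0.00491) and Tff3 (0.95, adjusted p = 0.00397) joined those that rose, and Spink4 (−0.74, adjusted p = 0.0293) joined Agr2 in falling. Agr2 lost its call without mouse 1 (adjusted p = 0.0623), 4 (0.0936) or 5 (0.104), and Clca1 without mouse 3 (1.28, adjusted p = 0.07). Agr2 also lost it in clumps over 1000 UMIs (adjusted p = 0.0771) and with no filter on low counts (0.0858). In pairs only, Zg16 (0.94, adjusted p = 0.387) and Clca1 (1.14, adjusted p = 0.241) did not pass, and in clumps that were not goblet-bearing none of these 3 genes did (adjusted p of 0.0873 to 0.201). With mouse 6 added, neither Clca1 (0.97, adjusted p = 0.18) nor Zg16 (1.00, adjusted p = 0.0945) passed, and Spink4 was called lower (−1.26, adjusted p = 0.0353).

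**Figure D1:**
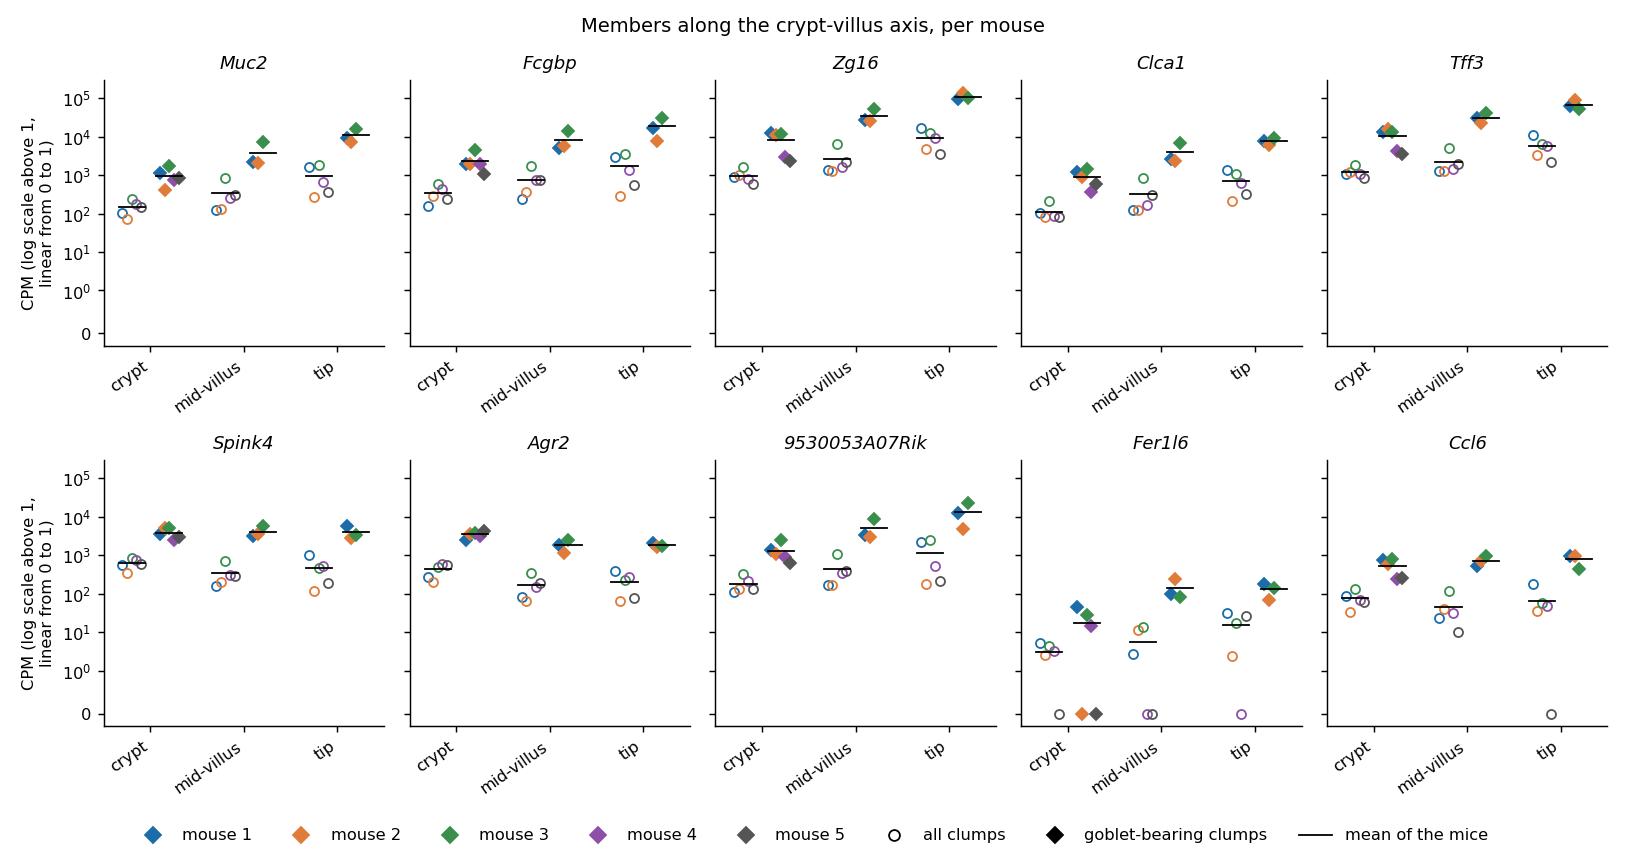
Level of each member per mouse (CPM, logarithmic above 1 and linear from 0 to 1) in crypt, mid-villus and villus tip clumps. Open circles are all clumps, filled diamonds goblet-bearing clumps and bars the mean of the mice (n = 5 per zone for all clumps, and 5, 3 and 3 for goblet-bearing clumps). The diamonds of Zg16, Muc2, Clca1, Tff3, Fcgbp and 9530053A07Rik climb toward the tip, whereas the tip diamonds of Agr2 lie below its crypt diamonds.

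The next comparison asks whether the rise holds inside clumps that carry goblet markers. Such clumps also hold neighboring cells, whose RNA enters the total. A level there cannot tell more RNA per goblet cell from less RNA of its neighbors. Clumps that were not goblet-bearing had a median of 4843.5 UMIs in the crypt and 1288 at the tip. The part of this in the rise was not tested. In goblet-bearing clumps 7 of the 9 members tested rose toward the tip, the exceptions being Spink4 and Agr2. The 10 members together took 31388 ± 13643 CPM of the crypt sums (n = 5 mice), 93815 ± 38396 of the mid-villus sums (n = 3) and 233828 ± 21672 of the tip sums (n = 3). Zg16 alone reached 109699 ± 20458 CPM at the tip, from 8038 ± 4977 in the crypt. Agr2 had a lower mean share of UMIs at the tip (1820 CPM) than its crypt mean of 3484 and was lower there in 3 of 3 mice. Spink4 stood at 3966 and 3829 and was higher at the tip in 1 of 3 mice.

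In the crypt of mice 1 to 5, goblet-bearing clumps held Zg16 at 12552, 11046, 11340, 2934 and 2320 CPM, and at the tip of mice 1 to 3 at 93353, 132641 and 103103. Muc2 stood at 1159, 399, 1680, 733 and 832 CPM in the crypt and at 9003, 7414 and 15786 at the tip. The tip values of both genes lay above all crypt values, and mice 4 and 5 had the lowest Zg16 levels of the crypt. Mid-villus levels of mice 1 to 3 (Zg16 at 27128, 25222 and 51610 CPM, Muc2 at 2241, 2112 and 7090) lay between those of the crypt and the tip without overlap. Tff3 rose from 3590 to 15971 CPM in the crypt to 53086 to 87821 at the tip, Clca1 from 367 to 1474 to 5864 to 9241, Fcgbp from 1094 to 4469 to 7818 to 30778, and 9530053A07Rik from 613 to 2522 to 4785 to 22211. Agr2 stood at 2495, 3587, 3904, 3188 and 4246 CPM in the crypt and at 2146, 1618 and 1697 at the tip, so that all tip values were below all crypt values. Spink4 (2437 to 5124 and 2831 to 5627) and Ccl6 (236 to 799 and 433 to 968) overlapped.

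By the same test, 7 of 9 members were called higher at the tip and none lower, against 30.8% and 40.9% of 740 genes (71.8% either way). The log2 fold change was 4.75 ± 0.69 for Zg16 (adjusted p = 3.36e-05), 4.39 ± 0.57 for Muc2 (adjusted p = 1.34e-05), 4.27 ± 0.59 for 9530053A07Rik (adjusted p = 2.26e-05) and 4.00 ± 0.51 for Clca1 (adjusted p = 1.33e-05). Fcgbp (3.95 ± 0.59, adjusted p = 4.47e-05) and Tff3 (3.72 ± 0.61, adjusted p = 8.57e-05) followed. Ccl6 passed at 1.42 ± 0.43 (adjusted p = 0.00764), but not without mouse 1 (1.24, adjusted p = 0.112) or mouse 2 (1.18, adjusted p = 0.0806), with DESeq2 (0.96, adjusted p = 0.0556) or its size factors (0.97, adjusted p = 0.0762), or with all 39 goblet markers choosing the clumps (1.38, adjusted p = 0.0566). With no filter on low counts neither Ccl6 (0.31, adjusted p = 0.802) nor Tff3 (2.59, adjusted p = 0.105) passed. Spink4 (0.95 ± 0.42, adjusted p = 0.0517) did not pass, and with the mouse as a block it did (0.82, adjusted p = 0.0474). Agr2 did not pass either (−0.07 ± 0.41, adjusted p = 0.894). With goblet-bearing clumps taken at 4 UMIs and 2000 CPM of the markers, 2 mice were left at the tip and 3 in the crypt, and Zg16 (2.88, adjusted p = 0.0902), Tff3 (2.07, adjusted p = 0.175) and Ccl6 (0.20, adjusted p = 0.831) lost their calls. Over all genes 228 were called higher and 303 lower (158 and 356 with DESeq2's size factors).

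Fitted values depend on the scale here. Spink4 had a ratio of mean CPM of 1.04 between tip and crypt and a fitted log2 fold change of 0.95, and Agr2 a ratio of 0.522 and a fitted change of −0.07. Muc2 had a ratio of 11.2 and a fitted change of 4.39. CPM divides by all UMIs of a sum, whereas the fit used totals of the tested genes scaled by TMM. The part of this in the offset was not tested. With the UMIs of the 33 goblet markers as the library size in place of all UMIs, the 6 leading genes were still higher at the tip (2.31 for Tff3 to 3.34 for Zg16), Agr2 was called lower (−1.30, adjusted p = 0.0309), and Spink4 (−0.30) and Ccl6 (0.07) did not pass. On that scale 409 of 740 genes were called lower and 85 higher, and the median over all genes was −1.65, below the value of Agr2. The summed 33 markers stood at 1912 ± 257 CPM in crypt, 1968 ± 327 in mid-villus and 2564 ± 537 in tip goblet-bearing clumps. The tip sums came from 9 to 12 clumps and 14837 to 83111 UMIs a mouse, and the median clump held 5323 UMIs in the crypt and 2129 at the tip. Fer1l6, at 0 to 44.2 CPM in the crypt and 67.4 to 183 at the tip, was too low to be tested, with 7, 1 and 12 UMIs in the tip sums. With no filter on low counts it was called higher (2.48, adjusted p = 0.0163), as were 245 of 16728 genes.

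Between mid-villus and crypt, the same 6 genes passed, against 29.2% of genes called higher, 38.1% lower and 67.3% either way, with log2 fold changes of 2.5 (Zg16, adjusted p = 0.0022), 2.48 (Clca1, adjusted p = 0.000305), 2.30 (9530053A07Rik, adjusted p = 0.00158), 2.29 (Muc2, adjusted p = 0.0011), 2.18 (Fcgbp, adjusted p = 0.00248) and 2.02 (Tff3, adjusted p = 0.0056). The split over all genes was 216 higher and 282 lower (149 and 303 with DESeq2's size factors). Tff3 lost its call without mouse 1 (2.36, adjusted p = 0.0509) and in pairs only (1.49, adjusted p = 0.0962), as did Zg16 in pairs (1.81, adjusted p = 0.0893). The stricter limit for goblet-bearing clumps (4 UMIs and 2000 CPM) left 1 mouse in the mid-villus against 3 in the crypt, that mouse being assumed to vary like the others, and none passed, at fold changes of like size (Zg16 2.24, adjusted p = 0.289, and Muc2 2.58, adjusted p = 0.0808). With no filter on low counts only Fer1l6 did (2.22, adjusted p = 0.0294). Ccl6 (0.86, adjusted p = 0.0806), Spink4 (0.47, adjusted p = 0.348) and Agr2 (−0.62, adjusted p = 0.196) did not pass. Of their values under other settings, 3 gained a call.

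**Figure D2:**
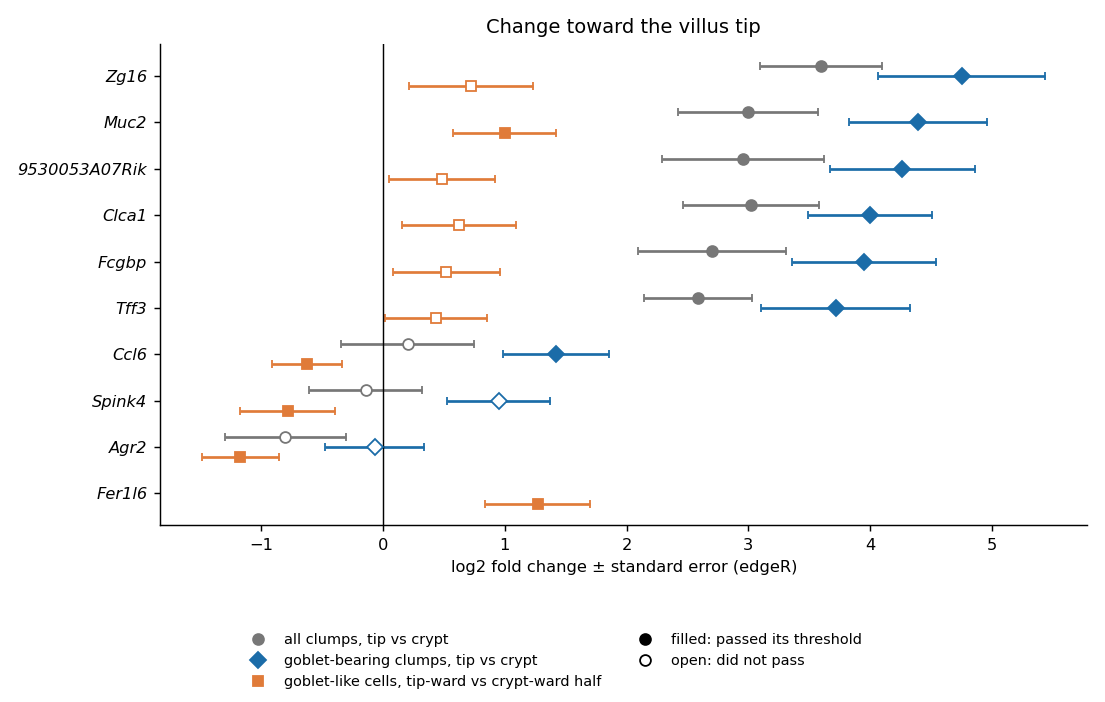
Log2 fold change of each member toward the villus tip (x axis, edgeR, bars are standard errors) in all clumps, in goblet-bearing clumps and between the tip-ward and the crypt-ward group of goblet-like single cells. Filled symbols passed the threshold of their comparison (0.05 for clumps, 0.25 for single cells). Zg16 stands at 3.59 and 4.75 in the clumps, and Agr2 at −0.80, −0.07 and −1.17 over the 3 comparisons.

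Single goblet-like cells were also split, without use of any member, into a crypt-ward group (101 cells, mice 1 to 4) and a tip-ward group (90 cells, mice 1 to 3) by 370 goblet landmark genes that the study had derived from these clumps. Agr2 is itself a crypt landmark of the study, left out of the split, and the other crypt landmarks were chosen for a like pattern. A lower tip-ward level of Agr2 is therefore not an independent result. The landmarks used were also left out of the genes tested, whereas Agr2 was kept. Agr2, Spink4 and Ccl6 were lower in the tip-ward group, and Muc2 and Fer1l6 were higher. Agr2 stood at 3528, 3577, 5760 and 5735 CPM in crypt-ward cells and at 2059, 2098 and 1521 in tip-ward cells, without overlap. Muc2 stood at 6873, 11927, 5053 and 4105 CPM and at 11445, 13329 and 16712. Its tip-ward value in mouse 1 lay below the crypt-ward value of mouse 2. Fer1l6 rose from 275, 266, 169 and 121 CPM to 392, 611 and 477, without overlap. Spink4 (6736, 4029, 11732 and 9960 against 6038, 3104 and 3731) overlapped between the groups, and Ccl6 (1715 to 2016 against 995 to 1291) did not.

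At the threshold of 0.25 that the study used for single cells, 3 members were called lower, against 22.1% of 479 genes tested, and 2 higher, against 13.2% (35.3% either way). Agr2 had a log2 fold change of −1.17 ± 0.31 (adjusted p = 0.0491), Spink4 of −0.78 ± 0.39 (adjusted p = 0.215) and Ccl6 of −0.62 ± 0.29 (adjusted p = 0.18). For Fer1l6 it was 1.27 ± 0.43 (adjusted p = 0.079) and for Muc2 1.00 ± 0.42 (adjusted p = 0.143). Zg16 (0.72, adjusted p = 0.375), Clca1 (0.63, adjusted p = 0.394), Fcgbp (0.52, adjusted p = 0.452), 9530053A07Rik (0.48, adjusted p = 0.486) and Tff3 (0.44, adjusted p = 0.507) did not pass, and Zg16 did with the mouse as a block (0.47, adjusted p = 0.0985). Zg16 also passed when cells were split into 3 groups by the landmarks and the outer 2 compared (1.14, adjusted p = 0.191). These calls rest on few mice: Agr2 lost its call without mouse 1, 2 or 3 (adjusted p of 0.281 to 0.381), as did Ccl6 (0.46 to 0.95) and Spink4 (0.452 to 0.726), and Muc2 (0.579) and Fer1l6 (0.391) lost theirs without mouse 3. With no filter on low counts, where 10519 genes were tested, none of the 5 calls held (adjusted p of 0.471 to 0.728). When goblet-like cells were named by their marker sum, which left 2 crypt-ward mice and 138 genes, Ccl6 did not pass (−0.11, adjusted p = 0.879), and Tff3 (0.48, adjusted p = 0.154) and Zg16 (0.48, adjusted p = 0.111) were called higher. Without mouse 2, Zg16 (1.43, adjusted p = 0.214), Fcgbp (1.35, adjusted p = 0.183), 9530053A07Rik (1.33, adjusted p = 0.178) and Clca1 (1.30, adjusted p = 0.212) passed.

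Crypt clumps were then compared by the cell type whose markers they carried, with clumps that met no list as the reference (2288 clumps, 5 mice). The mucus genes other than Fer1l6 were higher in goblet-bearing crypt clumps without overlap, and Fer1l6 was called there but overlapped with the reference. Spink4 and Ccl6 were also higher in Paneth-bearing clumps, and no member passed in tuft- or enteroendocrine-bearing ones. Paneth cells sit at the crypt base and secrete antimicrobial peptides.

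Agr2 stood at 2989, 3587, 4159, 3234 and 4498 CPM in goblet-bearing crypt clumps of mice 1 to 5 (205 clumps with no other list met) and at 192, 42.9, 141, 349 and 227 in the reference. Its levels did not overlap. With Fer1l6 set aside, 9 members were called, against 1.08% of 6551 genes. Their log2 fold changes were 3.99 ± 0.49 for Agr2, 3.97 for Clca1, 3.96 for Tff3, 3.92 for Ccl6, 3.89 for Zg16, 3.63 for 9530053A07Rik, 3.47 for Fcgbp, 3.41 for Spink4 and 3.40 for Muc2, with adjusted p between 2.4e-05 and 0.000762. Fer1l6 (3.16 ± 0.70) passed at 0.0223, but its levels overlapped, being higher than the reference in 3 mice and lower in 1. Fer1l6 lost its call without mouse 1 (adjusted p = 0.129), 3 (0.397) or 4 (0.0688), being at 0 UMIs in goblet-bearing crypt clumps of mice 2 and 5. It met the filter on low counts through the goblet-bearing sums of mice 1 and 3, where it was high, and with no filter it was called as well (3.04, adjusted p = 0.0342).

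In Paneth-bearing clumps of mice 1, 3 and 4 (620 clumps), Spink4 stood at 917, 1694 and 798 CPM, against 242, 123, 263, 405 and 386 in the reference of mice 1 to 5. Ccl6 stood at 127, 250 and 71.9 CPM, against 34.2, 8.05, 36.5, 36.3 and 30.5. Both genes lay above the reference without overlap and below their own levels in goblet-bearing crypt clumps of the same mice (2034 to 4801 CPM for Spink4, 197 to 733 for Ccl6). These were the 2 members called, against 0.733% of genes, at 2.52 ± 0.50 for Ccl6 (adjusted p = 0.0061) and 2.14 ± 0.43 for Spink4 (adjusted p = 0.00789). Without mouse 1 neither passed (Ccl6 2.56, adjusted p = 0.0634, and Spink4 2.10, adjusted p = 0.108), nor without mouse 3 (2.04, adjusted p = 0.138, and 1.69, adjusted p = 0.367). The summed 10 members stood at 1569 to 3122 CPM in Paneth-bearing clumps and at 1631 to 2710 in the reference.

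Tuft-bearing clumps (12 clumps of mice 1 and 3) held the 10 members at 486 and 637 CPM in sum and enteroendocrine-bearing clumps (34 clumps of mice 3 and 4) at 554 and 1739 CPM. No member passed in either by edgeR, where 0.473% and 0.229% of genes did. With the mouse as a block, Spink4 (−3.94, adjusted p = 0.0118) and Tff3 (−2.86, adjusted p = 0.0119) were lower in tuft-bearing clumps, and Spink4 passed without mouse 2 (−4.18, adjusted p = 0.0303). Clca1, Ccl6 and Fer1l6 had no UMI in the tuft-bearing clumps, whose 2 sums held 26744 and 42363 UMIs.

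**Figure D3:**
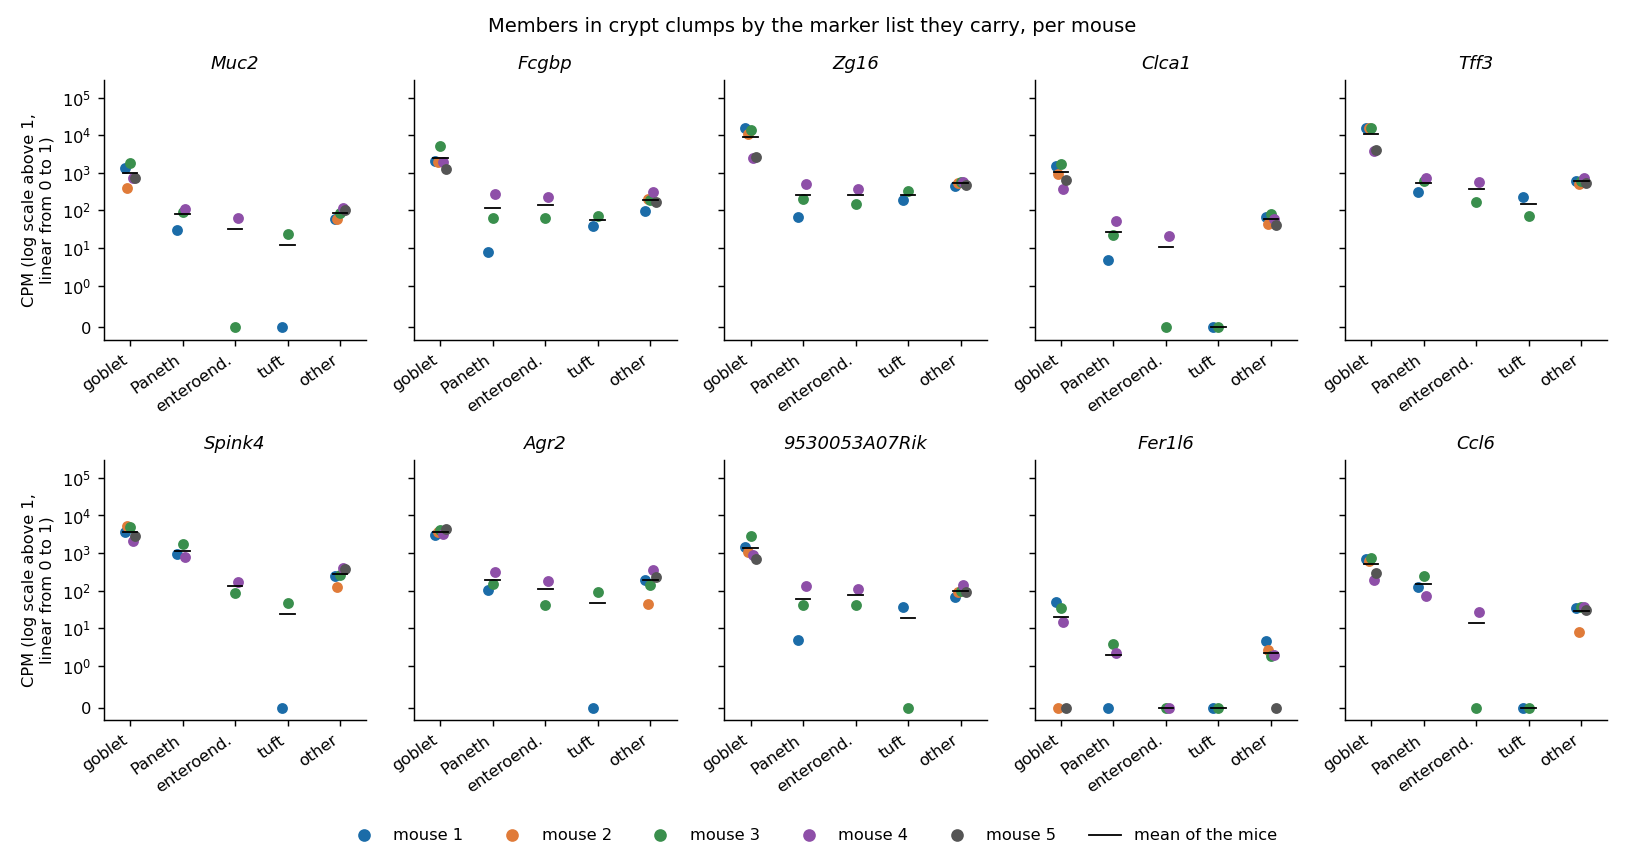
Level of each member per mouse (CPM, logarithmic above 1 and linear from 0 to 1) in crypt clumps carrying goblet, Paneth, enteroendocrine or tuft markers and in those carrying none (other). Points are mice (n = 5, 3, 2, 2 and 5) and bars their mean. The points of Spink4 and Ccl6 in Paneth-bearing clumps lie above those of the other clumps, and those of the remaining members overlap with them.

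The labelled condition of the clumps is their DNA content. In the crypt, the summed 10 members stood at 3082, 4202 and 3189 CPM in larger clumps of mice 1, 4 and 5 and at 4274, 3334, 6292, 1532 and 3891 CPM in pairs of mice 1 to 5. The ranges overlapped, and the larger clumps were lower in mice 1 and 5 and higher in mouse 4. No member was called (log2 fold changes of −0.31 to 0.45, 9 members tested), as was no gene by edgeR (0.0% of 6998 genes, 174 at an unadjusted p under 0.05) or by DESeq2 (70 at an unadjusted p under 0.05). Among goblet-bearing crypt clumps alone, a setting chosen after seeing the data, all 9 members tested had negative values, from −0.06 for Agr2 to −1.77 for 9530053A07Rik and −1.90 for Zg16. None passed the adjustment (adjusted p = 0.998 for each), and 9530053A07Rik, Ccl6 and Fcgbp were among 16 of 550 genes at an unadjusted p under 0.05. Among crypt clumps that met no list, chosen in the same way, all 9 had positive values, from 0.55 for Clca1 to 1.42 for Spink4 and 1.64 for Agr2. None passed there either (adjusted p = 0.9999 for each), and Agr2, Spink4, Muc2 and Ccl6 were among 163 of 6774 genes at an unadjusted p under 0.05.

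The makeup of the mucus transcripts shifted along the villus. Of the UMIs of the 10 members in crypt clumps, Tff3 held 26.9%, Zg16 20.5%, Spink4 16.8% and Agr2 12.8%. At the tip Zg16 held 44.5%, Tff3 25.9%, Spink4 1.90% and Agr2 0.89%. Per mouse, the share of Zg16 was 18.5 to 30% in crypt, 32.5 to 37.5% in mid-villus and 42.9 to 52.1% in tip clumps, so the zones did not overlap. The share of Spink4 was 10.3 to 18.5%, 4.3 to 6.2% and 1.3 to 2.8%, and that of Agr2 6.0 to 17.2%, 1.7 to 3.0% and 0.7 to 1.5%, again without overlap. Shares of a total are tied to each other, and no test was run on them. Goblet-like single cells held 42.1% Zg16, 28.0% Tff3, 10.0% Fcgbp, 3.00% Spink4 and 1.57% Agr2.

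**Figure D4:**
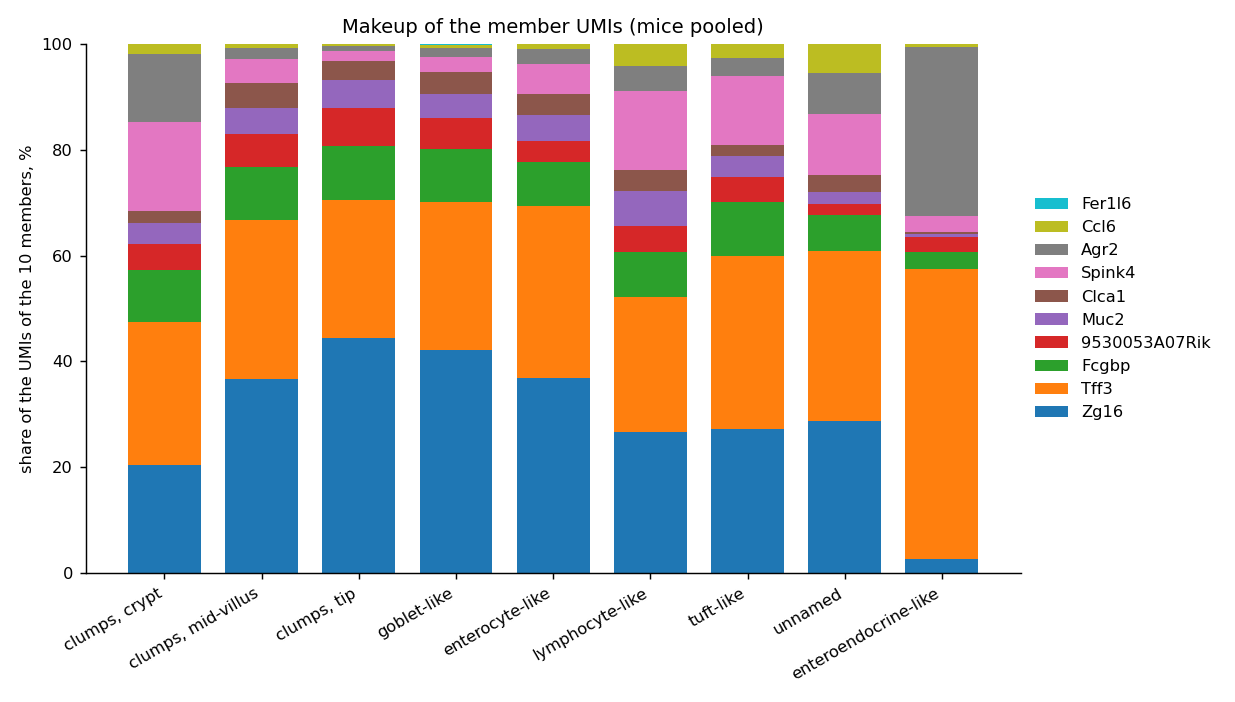
Share of each member among the UMIs of the 10 members (y axis, percent, mice pooled) in clumps of 3 zones and in single cells by cluster. Zg16 grows from 20.5% to 44.5% from crypt to tip while Spink4 and Agr2 shrink to 1.90% and 0.89%, and the enteroendocrine-like cells stand apart with 54.9% Tff3 and 32.0% Agr2.

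Members were found together in the same clumps more often than their single frequencies give. After each of the 5883 clumps was thinned to 500 UMIs, Tff3 was seen in 1252 clumps, Zg16 in 1098, Spink4 in 828, Fcgbp in 656, Agr2 in 608, Muc2 in 411, 9530053A07Rik in 395, Clca1 in 329, Ccl6 in 145 and Fer1l6 in 15. All 45 pairs of members occurred together above the number expected from independence, with a median ratio of 3.93. Without thinning all 45 were above it too, with a median of 2.20. When 2 UMIs of each member were required in thinned clumps, 41 of 45 pairs were above it, with a median of 8.02 and the lowest ratio at 0. The lowest ratio was 2.60 for Zg16 and Tff3 (608 clumps with both, 233.67 expected) and the highest 8.94 for Fer1l6 and 9530053A07Rik (9 clumps, 1.01 expected). Fcgbp was seen in 57.7% of clumps with Muc2 and in 7.66% of clumps without it. Within mice 1 to 5 the median ratio was 6.84, 14.4, 3.58, 2.56 and 4.50, over the 36, 10, 39, 37 and 28 pairs expected in at least 1 clump of that mouse. Clumps differ in depth, zone and cell content, which these ratios share, so they describe the clumps and carry no p. At least 4 members were seen in 258 of 386 goblet-bearing clumps (66.8%) and in 293 of 5497 others (5.33%).

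**Figure D5:**
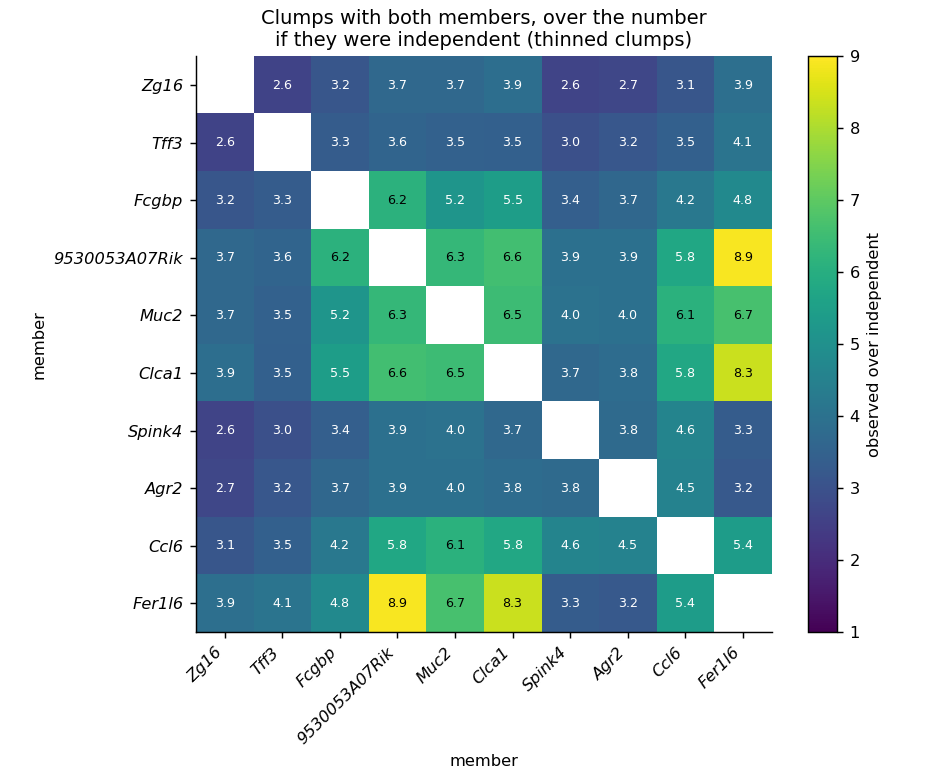
Clumps holding both members of a pair, as a ratio of the number expected from independence (color scale), over 5883 clumps thinned to 500 UMIs. All 45 pairs lie above 1, from 2.60 for Zg16 with Tff3 to 8.94 for Fer1l6 with 9530053A07Rik.

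Lymphocyte-like and enterocyte-like single cells are not known to make mucus, and the members' level in them serves as a measure of free RNA. Goblet-like cells held the 10 members at 249054, 260789, 189457 and 156035 CPM in mice 1 to 4. Enterocyte-like cells, the absorptive cells, held 798, 801, 504 and 187 CPM (572 ± 292, n = 4 mice), and lymphocyte-like cells of mice 2 to 4 held 205, 467 and 139 CPM (270 ± 173, n = 3). Enterocyte-like cells were above lymphocyte-like cells in each of mice 2 to 4, but the ranges over mice overlapped. In mouse 2 the types came mostly from different gates (492 enterocyte-like cells on Epcam and 643 lymphocyte-like cells on CD24 plates), and in mice 3 and 4 most cells of both came from onlyEpcam plates. Within 1 antibody gate the order was not constant. Enterocyte-like cells held more than lymphocyte-like cells on CD24 plates of mouse 2 (227 against 188 CPM), on onlyEpcam plates of mouse 3 (658 against 460) and on CD54Epcam plates of mouse 4 (520 against 0, with 17 lymphocyte-like cells), and less on onlyEpcam plates of mouse 4 (88.2 against 143) and on CD45Epcam plates of mouse 3 (289 against 784, with 11 lymphocyte-like cells). Near-empty wells of under 100 UMIs held the 10 members at 0 to 9804 CPM over mice and gates. None of the 9 members counted had levels that were apart between these types, where 53.9% of genes were higher and apart in lymphocyte-like cells and 11.5% lower. The 1% of cells with the most member UMIs carried part of the level: without them, enterocyte-like cells fell from 572 to 422 CPM and lymphocyte-like cells from 297 to 237 (mice pooled). The level also depends on how cells are named. By marker sums in place of clusters, the means over mice were 1800 CPM for enterocyte-like and 263 for lymphocyte-like cells.

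At least 1 member UMI was seen in 54.8% of enterocyte-like cells (95% Clopper-Pearson interval 52.9 to 56.8%) and in 19% of lymphocyte-like cells (17.2 to 21%), at median depths of 2839 and 850.5 UMIs. After thinning to 500 UMIs, which left out 51 and 315 cells, the shares were 20.2% and 12.7%. Tuft-like cells gave 15.2% and unnamed cells 12.2% on the same basis. No member was apart between tuft-like and enterocyte-like cells, where 12.1% of genes were higher and apart and 13.4% lower. Per mouse, the thinned share of enterocyte-like cells ranged from 34.9% in mouse 1 to 4.60% in mouse 4, and that of lymphocyte-like cells from 20.6% in mouse 3 to 6.50% in mouse 4, so mice differed more than the types did. The antibody gates of the plates differed between and within mice, as did the levels of enterocyte-like cells by gate (838 CPM on Epcam and 227 on CD24 plates of mouse 2, 520 on CD54Epcam and 88.2 on onlyEpcam plates of mouse 4). Zg16 was seen in 33.2% and Tff3 in 28.9% of enterocyte-like cells before thinning. Fer1l6 was seen in 1 of 2550 enterocyte-like cells and in 0 of 1618 lymphocyte-like cells, which allows a share of up to 0.185% (3 cells) of such cells with a UMI at this depth and sets no limit on cells with the transcript. These intervals cover counting error only.

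The mix of members in enterocyte-like cells (36.9% Zg16, 32.5% Tff3) had the same order of these genes as goblet-like cells, and lymphocyte-like cells held 26.7% Zg16, 25.5% Tff3 and 14.9% Spink4. Enteroendocrine-like cells, which secrete hormones, differed. In mice 1 to 4 they held Tff3 at 2570, 1254, 787 and 1328 CPM, against 239, 268, 167 and 76.0 in enterocyte-like cells. Agr2 stood at 357, 810, 393 and 620 CPM, against 9.07, 11.7, 32.3 and 11.1. Both genes lay apart and higher, as 6.58% of 11523 genes did (10.4% lay apart and lower), whereas Zg16 (0 to 107 CPM) lay at or below the enterocyte-like levels of the same mouse. After thinning, Tff3 was seen in 32.9%, Agr2 in 18.9% and Zg16 in 4.12% of enteroendocrine-like cells, against 7.28%, 0.680% and 9.44% of enterocyte-like cells. The 33 goblet markers summed to 236 to 443 CPM in enteroendocrine-like cells, 25 to 69.3 in enterocyte-like cells, 163 to 252 in lymphocyte-like cells and 2785 to 4377 in goblet-like cells. Their part in the Tff3 and Agr2 levels was not tested. Of the 251 enteroendocrine-like cells, 219 came from mouse 2.

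Other genes of mucus making were counted from 4 lists, to be read against the shares of all genes called above (24.5% higher and 29.8% lower at the tip of all clumps, 30.8% higher at the tip of goblet-bearing clumps). Of 16 genes of mucin glycosylation, 7 were tested over all clumps and 2 rose from crypt to tip, the sialyltransferases St3gal4 (1.31, adjusted p = 0.000608) and St3gal6 (1.10, adjusted p = 0.0239). Of 16 goblet regulators and genes of the secretory machinery, 5 were tested and 2 rose, the transcription factor Klf4 (4.61, adjusted p = 1.4e-07) and the vesicle SNARE Vamp8 (1.39, adjusted p = 0.000275). Of 5 genes of mucus release, 4 were tested, of which the meprins Mep1a (3.08) and Mep1b (1.69) rose and the chloride channel Cftr (−2.15, adjusted p = 0.00812) fell. Of 5 transmembrane mucins, the 2 tested, Muc13 (2.11) and Muc4 (1.11), rose. In the mid-villus of all clumps, where 20.1% of all genes were called higher and 22.3% lower, the same 7, 5, 4 and 2 genes of the lists were tested. St3gal4 (1.23), St3gal6 (1.08), Klf4 (2.72), Vamp8 (0.77), Mep1a (2.96), Mep1b (2.14) and Muc13 (1.51) rose, and Mlph (−1.18) and Creb3l1 (−1.69) fell. In goblet-bearing clumps only 5 of these genes could be tested, and all 5 were higher at the tip: St3gal4 (1.98), Klf4 (3.75), Vamp8 (1.96), Mep1b (2.17) and Muc13 (2.26). Enterocytes express several of these genes too.

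Between the tip-ward and crypt-ward goblet-like cells, Galnt7, which starts O-glycans (−1.46, adjusted p = 0.062), and the small GTPase partner Rep15 (−1.64, adjusted p = 0.093) were lower and St3gal4 (1.05, adjusted p = 0.167) was higher, of the 4 glycosylation genes and 6 of the second list that were tested. These 3 of 10 are near the 35.3% of all genes called in that comparison. In goblet-bearing crypt clumps, genes of these lists are among the markers that chose the clumps, so they were not counted there. In the other crypt comparisons no gene of the 4 lists passed.

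The genes whose levels followed the summed members most closely over 22 sums of single cells (mouse and cluster) were Gm1123 (Spearman's rho 0.86), the lectin Lgals2 (0.84), Gcc2 (0.83), Phgr1 (0.82) and Tpm1 (0.81), out of 1909 genes ranked. Gm1123 stood at 525 to 791 CPM in goblet-like cells and at 197 or less in every other sum. Lgals2 had 3868 to 5608 CPM in goblet-like cells and up to 3747 elsewhere, and the goblet-like levels of Gcc2, Phgr1 and Tpm1 overlapped with those of other clusters. The points share libraries and depth, and the order is a description.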

How the data were processed

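The authors aligned MARS-seq reads to GRCm38 (bcl2fastq 2.15.0.4 is named for the demultiplexing) and deposited raw UMI counts per gene and well, 1 table for clumps (17162 wells, 38454111 UMIs) and 1 for single cells (16850 wells, 39137313 UMIs), neither normalized nor background-subtracted. No well name occurs in both. The members and gene lists were chosen with earlier results of these data known.

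Clumps needed 200 genes, a mitochondrial share of 30% or less (6540 wells) and more than 500 UMIs, and the 2% with the lowest landmark shares were left out. Zones came from 70 enterocyte landmark genes, which were kept out of calls. Paneth-bearing clumps held at least 10 UMIs of 10 Paneth markers, and tuft- and enteroendocrine-bearing clumps at least 3 UMIs and 1000 CPM of their lists. Of the study's 39 goblet markers, the members and AW112010, a lymphocyte gene, were left out. Cells (200 to 7000 UMIs, 150 to 1500 genes, at most 40% mitochondrial UMIs) were clustered without members in scanpy 1.11.5 (2000 variable genes, 25 components, 20 neighbours, Leiden resolution 0.1). No doublet caller was run, and background was not subtracted.

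UMIs were summed per mouse (at least 5 wells a sum) and tested in edgeR 4.0.16 (quasi-likelihood test, TMM, filterByExpr, Benjamini-Hochberg over all genes), at 0.05 for clumps and 0.25 for goblet-like cells. The goblet landmarks were counted in cells with at least 5 of their UMIs. Alternatives used DESeq2 1.42.0, other filters and rules, each mouse left out, and the mouse as a block. The same number within a table was taken as the same animal. Single cells of mouse 2 carry 2 ages (3 months, and 4 months on 3 plates), so this number may stand for more than 1 animal. Residuals of the same mouse correlated at 0.176 to 0.575 between zones, 0.030 to 0.310 in goblet-bearing clumps, 0.121 to 0.337 between sizes, 0.166 to 0.287 in goblet-like cells and −0.0207 to 0.623 between crypt classes. All 10 members were named in every comparison, with at most 4 genes of each other list by adjusted p and the 5 genes most like the summed members. The scripts were tested on simulated data.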

Additional observations from a re-analysis of the deposited data

Results flagged for a closer look

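In groups of 4 or 5 mice, 17 of 130 tested for a value far from the rest held one. The limit used is made for about 1 in 20 independent groups of normal values. Groups here share sums, and a gene seen in 1 mouse alone always crosses the limit. The count can therefore not be set against chance. Mouse 3 stood above the other mice in mid-villus clumps for Muc2 (856 CPM, others 124 to 299), Zg16 (6264, others 1312 to 2155), Clca1 (855, others 123 to 304), Tff3 (4960, others 1304 to 1927), Spink4 (728, others 155 to 317), 9530053A07Rik (1092, others 169 to 401), Ccl6 (121, others 10.1 to 40.6) and the sum of the 10 members (16953). These 8 values come from 1 sum and are not separate observations. In the crypt, mouse 3 was high for Clca1 over all clumps (207 CPM, others 80.8 to 102) and for Fcgbp in goblet-bearing clumps (4469 CPM, others 1094 to 1911, and 5023 in those meeting no other list).

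Other values far from their group were at low levels. Ccl6 was low in the crypt clumps of mouse 2 that met no list (8.05 CPM, others 30.5 to 36.5). In enterocyte-like cells Agr2 was high in mouse 3 (32.3 CPM, 68 UMIs, others 9.07 to 11.7), Fer1l6 was seen only in mouse 2 (0.649 CPM), and Ccl6 was high in mouse 1 (7.77 CPM, 18 UMIs, others 3.24 to 3.80). Ccl6 was seen in enteroendocrine-like cells of mouse 2 alone (15.7 CPM), and Clca1 in unnamed cells of mouse 3 alone (17.5 CPM).

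The clumps of mouse 6, labelled above 2n and used in no main comparison, held the 10 members at 5202 CPM in the crypt (101 clumps), 3234 in the mid-villus (69) and 61285 at the tip (78). The tip value lies above those of mice 1 to 5 (7474 to 37480), and the mid-villus value below them.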

How the results depend on the processing

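Of 1327 values of single members under an alternative, 1157 kept their direction and side of the threshold, 73 lost their call, 28 gained one and 69 changed sign, all of the last for members that had not passed in the main comparison. Zg16, Muc2, Clca1, Tff3, Fcgbp and 9530053A07Rik kept their calls between tip and crypt without each mouse in turn, with DESeq2 and with its size factors, over all clumps and in goblet-bearing ones. The number of members called in goblet-bearing crypt clumps, with Fer1l6 counted, stayed between 9 and 10. The cause of the changes below was not tested.

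Called members between tip and crypt numbered 3 in clumps that were not goblet-bearing, and 4 in goblet-bearing clumps at the stricter limit of 4 UMIs and 2000 CPM (2 mice against 3). Between mid-villus and crypt they numbered 8 with the mouse as a block, 1 in pairs only and 1 in clumps that were not goblet-bearing. In goblet-bearing clumps of the mid-villus they numbered 1 with no filter on low counts, 0 at the stricter limit and 2 after thinning to 500 UMIs, both with 1 mid-villus mouse against 3 (the tip could not be fitted with the thinned rule, as no sum held 5 clumps). A lone mouse, here and in tuft- or enteroendocrine-bearing clumps without 1 of their 2 mice and in Paneth-bearing pairs, is assumed to vary like the others. In tuft-bearing clumps they numbered 1 with no filter, 2 with the mouse as a block, 1 with mouse 6 added and 0 to 1 without each mouse in turn, and in Paneth-bearing clumps 0 to 2 without each mouse. Goblet-like cells gave 0 with no filter and 0 to 6 without each mouse. The level of the summed members in enterocyte-like cells was 1800 CPM when cells were named by marker sums, and 20.2% of these cells held a member UMI after thinning, as a mean over mice (55.1% before). The block raised the genes called in goblet-bearing crypt clumps from 71 to 143, in enteroendocrine-bearing ones from 15 to 55 and in tuft-bearing ones from 31 to 54. Between clump sizes 27 genes were called with the block and 40 with no filter, none of them a member. The block changed no other member's call than those given with the results.

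Signs changed for Ccl6 at the tip of all clumps with DESeq2's size factors (−0.11), with DESeq2 (−0.16), in clumps not goblet-bearing (−1.92) and without each mouse in turn (−0.50 to 0.54), and for Spink4 there with mouse 6 (0.029) and without each mouse (−0.72 to 0.15). At the tip of goblet-bearing clumps Agr2 was positive with the block (0.16), over 1000 UMIs (0.019), with mouse 6 (0.39), in pairs (0.20) and with all 39 markers (0.36), and ran from −0.37 to 0.024 without each mouse. Spink4 was negative there at the stricter limit (−0.014) and per marker UMI (−0.30), and in the mid-villus with DESeq2's size factors (−0.054), DESeq2 (−0.048) and no filter (−0.018). In Paneth-bearing clumps these were Agr2 (−0.025 with mouse 6, −0.17 to 0.31 without each mouse), Fer1l6 (0.088 with the block, −0.75 to 0.52), Tff3 (0.83 in pairs, −0.13 to 0.19) and Muc2 (−0.014 with DESeq2, −0.081 with the block, −0.031 over 1000 UMIs, −0.53 with mouse 6, −0.18 to 0.24). Fer1l6 was 1.01 in tuft-bearing clumps with DESeq2, and Fcgbp −1.85 to 0.023 in enteroendocrine-bearing ones without each mouse. In goblet-like cells named by marker sums 9530053A07Rik was −0.10.

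Between larger clumps and pairs, where no member passed under any setting, positive values arose with mouse 6 for 9530053A07Rik (0.34), Ccl6 (0.16), Clca1 (0.42), Fcgbp (0.34), Tff3 (0.048) and Zg16 (0.40). In clumps meeting no list, where all 9 members tested were positive, they arose for 9530053A07Rik (0.75), Ccl6 (1.07), Clca1 (0.55), Fcgbp (0.62), Tff3 (0.86) and Zg16 (0.64), and with zones by z score for 9530053A07Rik (0.053), Ccl6 (0.033), Fcgbp (0.078) and Zg16 (0.0094). With the block they arose for Ccl6 (0.039), Clca1 (0.29), Fcgbp (0.070) and Zg16 (0.29), and for Ccl6 with no filter (0.073) and over 1000 UMIs (0.22). In goblet-bearing crypt clumps alone all 9 members tested were negative, of which Agr2 (−0.061), Muc2 (−1.07) and Spink4 (−0.81) had been positive. Without each mouse, 9530053A07Rik ran from −0.65 to 0.16, Ccl6 from −0.39 to 0.31, Clca1 from −0.55 to 0.059, Fcgbp from −0.64 to 0.28 and Muc2 from −0.017 to 0.71.

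Depth limits Fer1l6 and Ccl6 most, the tip of goblet-bearing clumps rests on 31 clumps of 3 mice, and nothing says that plates of 1 mouse are separate preparations.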
